A study of Mus musculus with 27 samples.

Results

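The comparison described here set NIH/3T3 cultures harvested 12 h after a forskolin pulse against cultures harvested at the end of that pulse (0 h). Its members were chosen by label alone: the 3 arrays labelled 12 hr and the 3 labelled 0 hr, 6 of the 27 arrays of the series, paired by experiment number. NIH/3T3 is an established mouse embryonic fibroblast line. In each of 3 experiments, which the labels call biological replicates, cells grown in 20% serum were stepped down to 5% serum and then given a pulse of 15 µM forskolin for 2 h in medium without serum. They were rinsed, kept without serum, and harvested flask by flask every 6 h for 48 h, and total RNA was hybridised to Affymetrix mouse U74v2 arrays. Every culture had received the pulse and the serum withdrawal. The 12 h cultures had been 12 h without forskolin, and the 0 h cultures had been in forskolin up to harvest, so 0 h is not an untreated state. No cultures that missed the pulse were analysed here, and time since forskolin and time without serum cannot be told apart.

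Forskolin activates adenylyl cyclase directly, and the cyclic AMP (cAMP) it makes frees protein kinase A to phosphorylate the transcription factor CREB. CREB then switches on a set of early genes, many of which code for short-lived transcripts, and some of which (Crem, the phosphodiesterase Pde4b, the G protein regulator Rgs2) damp the same pathway. In fibroblasts such a pulse is also used to align circadian clocks, and serum withdrawal leads the cells out of the cell cycle.

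Values are log2(intensity + 12.1) after quantile normalization, in that unit throughout unless stated otherwise, and a change is the 12 h minus the 0 h mean with its standard error (SE). Genes were called at an adjusted p below 0.05 (limma, Benjamini-Hochberg adjustment over all 7453 probe sets kept, experiment number as a block). "Rose" and "fell" mean called higher or lower at 12 h than at 0 h. The array medians of the deposited intensities lay between 166.8 and 200.65 over all 27 arrays. The ratio of the 3′ to the 5′ actin control probe set, a sign of RNA or labelling quality, was 1.609, 1.146 and 1.317 in the 12 h arrays of experiments 1, 2 and 3, against 1.702, 1.351 and 1.475 in the 0 h arrays. It was lower at 12 h in each experiment; with this ratio as a covariate 1245 probe sets were called, against 1521 without it. The 12 h arrays of experiments 1 and 3 carry another source label than the rest of the series, and with only the experiment 2 array at 12 h the count was 768.

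The fibroblast label was checked first. The collagen gene Col1a2 lay between 14.53 and 14.60 at 12 h and between 14.49 and 14.60 at 0 h, and 14 of the 15 fibroblast markers listed were measured. Markers of other cell types mostly stayed below the filter: 3 of 13 epithelial, 4 of 12 leukocyte, 2 of 8 endothelial, 7 of 14 muscle, 5 of 13 neural and 3 of 8 adipocyte genes on the array passed it. Vim, the filament protein vimentin, was measured by a dim probe set, at 7.20 to 7.92 at 12 h and 7.13 to 7.37 at 0 h. Of the other cell types' markers, 5 had means over 9 at both times. Cdh1, the epithelial cadherin, lay at 9.16 to 9.33 at 12 h and 8.81 to 9.40 at 0 h. Mean levels at 12 h and 0 h were 9.61 and 10.10 for Cd14 (leukocyte), 9.88 and 9.21 for Eng (endothelial), 10.65 and 10.72 for Tubb3 (neural) and 9.77 and 9.67 for Lep (adipocyte). Eng changed by 0.66 ± 0.16, not called without the block (adjusted p = 0.113) or without experiment 2 or 3 (0.0568 and 0.0693), and Lpl, an adipocyte marker, by -0.96 ± 0.21, not called without the block (0.427). The part of these markers in the results was not tested. No probe set of these lists was listed at 0, and the array gave no detection calls here, so low levels cannot be told from background.

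Between the end of the pulse and 12 h, 1521 of 7453 probe sets (20.4%) were called. Taken as genes, each represented by its brightest probe set, 668 of 5643 rose (11.8%) and 556 fell (9.85%). The falls were the larger: 124 genes fell and 88 rose by more than 1, and 15 fell and 8 rose by more than 2. These are RNA levels of whole cultures, in which fewer cells of a kind and less RNA per cell cannot be told apart. The median change over all genes was 0.02. Of the 1224 genes called, 1208 changed in 1 direction in all 3 experiments. The calls were made on these same arrays, so this agreement follows in part from the selection and is no separate support. The 3 arrays at 12 h lay above all 3 at 0 h for 752 genes (13.3%) and below them for 669 (11.9%). The pairing carried part of this count: without the experiment block 277 genes rose (4.91%) and 213 fell (3.77%). The list counts below are to be read against these shares of all genes, with and without the block. Over all lists and both directions 24 counts came to 1 or 2 calls, and of these 20 moved by more than 1.5 times when some experiment was left out. With an experiment left out, 1151 probe sets were called without experiment 1, 803 without experiment 2 and 759 without experiment 3.

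**Figure D1:**
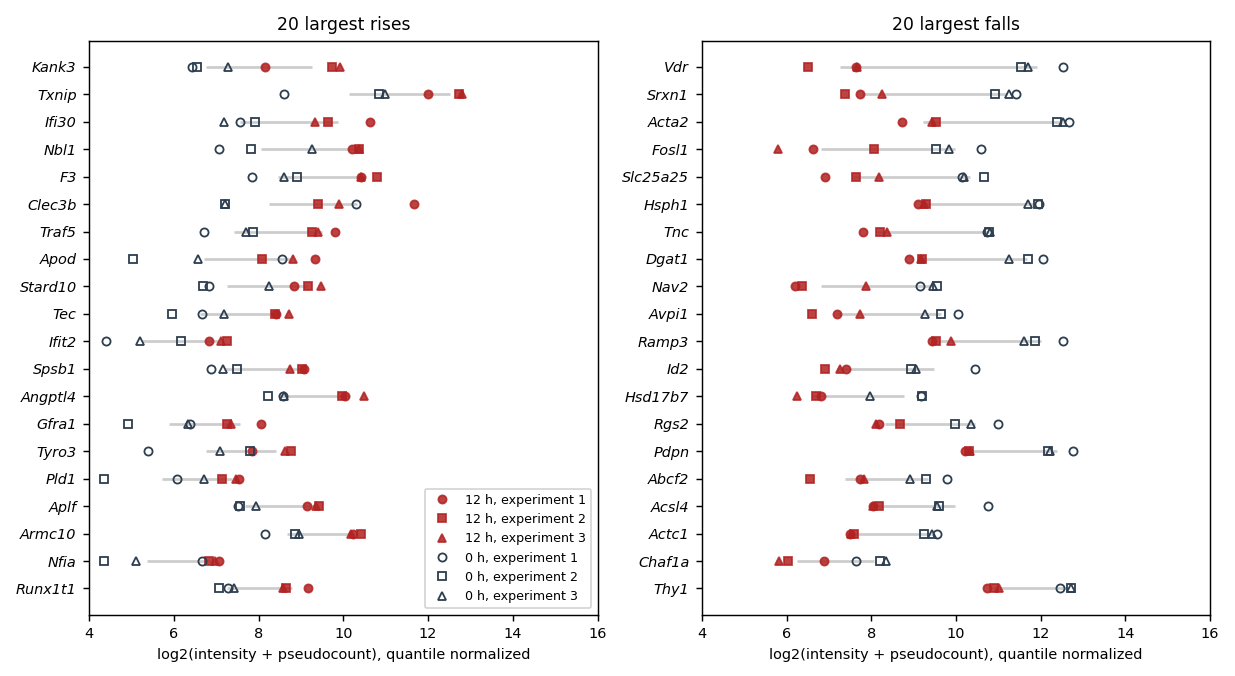
Values of the 20 genes that rose most and the 20 that fell most, as log2(intensity + 12.1) on the horizontal axis, 1 row per gene. Filled red symbols are the 3 arrays at 12 h, open dark symbols the 3 arrays at 0 h, the shape marks the experiment, and the grey line joins the 2 means. The arrays of the 2 times do not overlap for any of the 20 falls, and overlap for Clec3b and Apod among the rises.

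Vdr, which codes for the vitamin D receptor, fell most. It is a nuclear receptor that cAMP is known to induce in mouse fibroblasts. Its values were 7.63, 6.50 and 7.67 at 12 h, against 12.52, 11.54 and 11.70 at 0 h. The change of -4.65 ± 0.27 (adjusted p = 8.81e-11) left 0.0398 times the 0 h level, and a second, dimmer probe set of the gene changed by -3.64 ± 0.30. The next was Srxn1, sulfiredoxin, which repairs oxidised peroxiredoxins, with 7.72, 7.37 and 8.24 at 12 h, against 11.41, 10.93 and 11.26 at 0 h, a change of -3.42 ± 0.19 (adjusted p = 3.50e-11). For Srxn1 a dimmer probe set gave 0.03 ± 0.23 (adjusted p = 0.937), so the fall rests on the brighter one. Acta2, smooth muscle alpha actin, had 8.72, 9.52 and 9.44 at 12 h, against 12.67, 12.38 and 12.53 at 0 h. Its change was -3.30 ± 0.33 (adjusted p = 2.42e-07), to 0.101 times the 0 h level. All 3 genes had every 12 h array below every 0 h array, with a gap of more than 2 between the groups.

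Fosl1, which codes for the AP-1 subunit Fra-1, fell by 3.17 with an SE of 0.44 (adjusted p = 1.64e-05). Its values were 6.61, 8.05 and 5.80 at 12 h, against 10.59, 9.53 and 9.84 at 0 h, and its 12 h arrays differed among themselves by more than 2. Dgat1, the enzyme that completes triglycerides, had 8.90, 9.19 and 9.18 at 12 h, against 12.06, 11.70 and 11.25 at 0 h, and changed by -2.58 ± 0.16 (adjusted p = 1.14e-10). Tnc, the matrix protein tenascin C, had 7.80, 8.22 and 8.37 at 12 h, against 10.73, 10.79 and 10.79 at 0 h, and changed by -2.64 ± 0.20 (adjusted p = 4.81e-09). The tight grouping of the Tnc values at 0 h set it apart from Fosl1. Pdpn, the membrane glycoprotein podoplanin, changed by -2.10 ± 0.16, Thy1, a fibroblast surface glycoprotein, by -1.75 ± 0.15, and Id2, an inhibitor of helix-loop-helix transcription factors, by -2.29 ± 0.22. Avpi1 and Abcf2, 2 further genes among the 20 largest falls, changed by -2.48 ± 0.45 and -1.96 ± 0.38. Nav2 changed by -2.58 ± 0.59, and lost its call without experiment 1 (adjusted p = 0.0633).

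Rises were led by Kank3, a member of a family of actin-regulating ankyrin repeat proteins, with 8.15, 9.74 and 9.92 at 12 h, against 6.44, 6.55 and 7.26 at 0 h and a change of 2.52 ± 0.23 (adjusted p = 9.39e-08). Txnip, the thioredoxin-binding protein that restrains glucose uptake, had 11.99, 12.72 and 12.81 at 12 h, against 8.59, 10.84 and 10.97 at 0 h, and changed by 2.37 ± 0.29 (adjusted p = 2.83e-06). Its 0 h array of experiment 1 was the lowest by more than 2, and the groups did not overlap. A dimmer Txnip probe set gave 0.23 ± 0.15 (adjusted p = 0.306), so the rise rests on the brighter one. Nbl1, a secreted antagonist of bone morphogenetic proteins, had 10.21, 10.37 and 10.37 at 12 h, against 7.06, 7.82 and 9.25 at 0 h and changed by 2.27 ± 0.30 (adjusted p = 8.75e-06). Its 12 h values lay within 0.2 of each other, and its 0 h values spread over more than 2. F3, tissue factor, the initiator of blood coagulation, had 10.42, 10.78 and 10.43 at 12 h, against 7.85, 8.91 and 8.59 at 0 h, a change of 2.10 ± 0.22 (adjusted p = 5.68e-07). Traf5, an adaptor of tumour necrosis factor receptors, changed by 2.06 ± 0.22, the lipid transfer protein gene Stard10 by 1.91 ± 0.23, and the tyrosine kinase gene Tec by 1.90 ± 0.23. For each of the 3 the groups did not overlap. Clec3b (tetranectin) and Apod (apolipoprotein D), 2.09 ± 0.28 and 2.03 ± 0.28, were higher at 12 h in every experiment, but experiment 1 ran higher at both times, and without the experiment block neither was called (adjusted p = 0.113 and 0.0681).

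**Figure D2:**
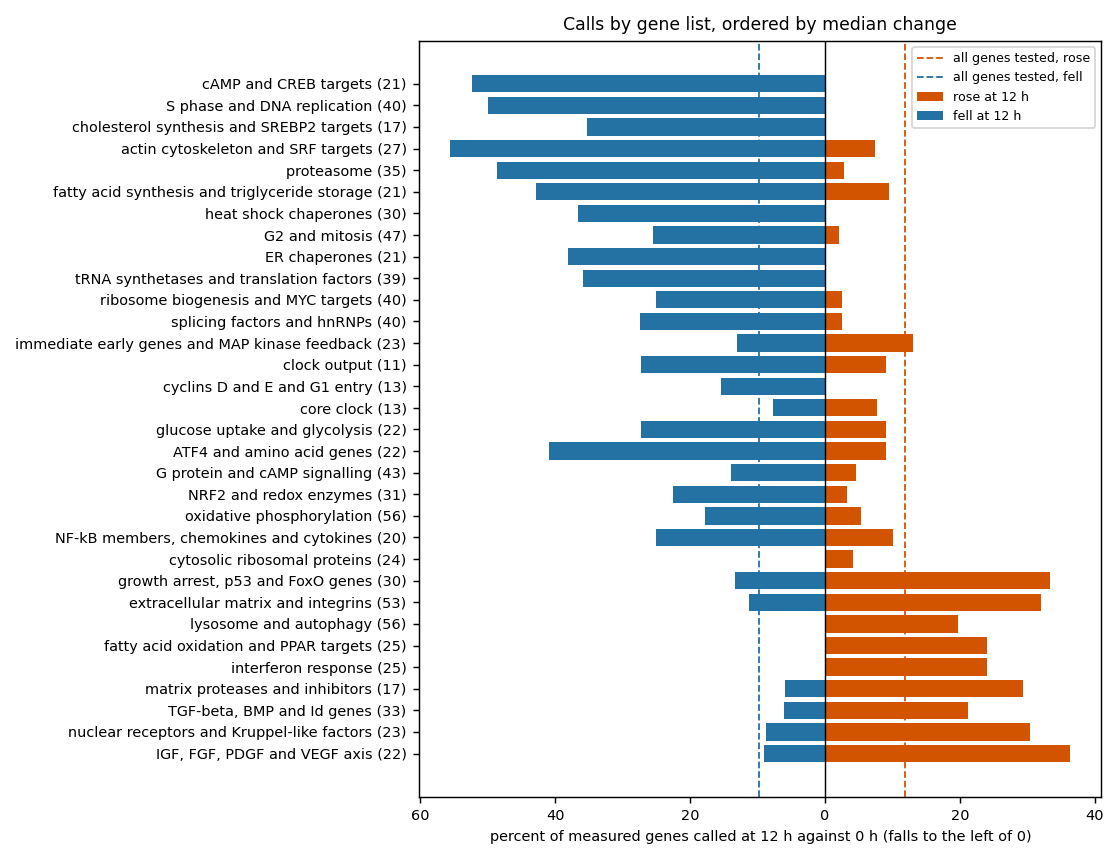
Share of the measured genes of each list that rose (orange, right of 0) or fell (blue, left of 0) at 12 h against 0 h, in percent, with the number of measured genes in brackets and lists ordered by median change. The dashed lines are the shares of all genes tested, 11.8% rose and 9.85% fell. The cAMP, S phase, actin, proteasome, chaperone, fatty acid synthesis and ATF4 lists are among those beyond the dashed line on the falling side. The growth factor, matrix and growth arrest lists are among those beyond it on the rising side. The matrix and growth arrest lists also pass the falling line, with 6 of 53 and 4 of 30 genes.

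The genes most directly tied to the pulse are the targets of cAMP and CREB. Of 35 on that list 28 were on the array and 21 passed the filter on low values; 11 fell and 0 rose, with a median change of -0.91. Without the block 10 fell, and 9, 12 and 10 fell without experiments 1, 2 and 3. In the fit with only the experiment 2 array at 12 h and all 0 h arrays, the list median was -0.84. The list medians of the 3 experiments were -1.69, -0.45 and -0.62, so experiment 1 moved most. The largest fall was that of Slc25a25, a mitochondrial carrier of ATP-Mg and phosphate, with 6.90, 7.63 and 8.18 at 12 h, against 10.13, 10.66 and 10.18 at 0 h, a change of -2.75 ± 0.31 (adjusted p = 1.29e-06). Ramp3, a partner protein of calcitonin-like receptors that signal through cAMP, had 9.43, 9.52 and 9.89 at 12 h, against 12.53, 11.88 and 11.59 at 0 h, and changed by -2.39 ± 0.23 (adjusted p = 1.66e-07). Neither gene's groups overlapped.

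The feedback genes of the pathway fell as well. Rgs2, which switches off G protein signals, had 8.18, 8.67 and 8.11 at 12 h, against 11.00, 9.97 and 10.35 at 0 h, and changed by -2.12 ± 0.22 (adjusted p = 3.67e-07). Crem, whose ICER forms repress cAMP responsive genes, had 7.11, 7.10 and 7.03 at 12 h, against 9.03, 7.71 and 7.66 at 0 h, and changed by -1.05 ± 0.29 (adjusted p = 0.0114). Its 0 h array of experiment 1 stood more than 1 above the other two. Pde4b, which degrades cAMP, changed by -0.91 ± 0.21 (adjusted p = 0.00305). Among the transcription factors of the list, Cebpd had 10.90, 10.71 and 10.90 at 12 h, against 12.94, 12.19 and 12.33 at 0 h and changed by -1.65 ± 0.17 (adjusted p = 3.67e-07). Nfil3, a repressor that binds the sites of clock output regulators, changed by -1.58 ± 0.25, Cebpb by -1.18 ± 0.21 and Junb by -0.89 ± 0.19. Bdnf, a neurotrophin, changed by -1.25 ± 0.25, and Hk2, a hexokinase, by -1.50 ± 0.38. Single experiments decided some of these calls: without experiment 1 Crem was not called (adjusted p = 0.199) and Bdnf changed by -0.83, without experiment 3 Pde4b was not called (adjusted p = 0.0703), and Hk2 was not called without experiment 1 or 3 (adjusted p = 0.0577 and 0.0842) or without the block (0.0553).

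The other 10 members were not called. The orphan receptor gene Nr4a1 changed by -1.18 ± 0.42 (adjusted p = 0.0507), with 7.53, 8.32 and 8.70 at 12 h, against 10.69, 8.76 and 8.63 at 0 h, so that experiment 1 gave nearly all of it. Dusp1, a phosphatase of MAP kinases, changed by -0.82 ± 0.32 (adjusted p = 0.074), Fos by -0.64 ± 0.48, Gem by -0.36 ± 0.23, Atf3 by -0.30 ± 0.32 and Per1 by -0.26 ± 0.29. Fosb, Klf4 and Egr1 had positive changes of 0.26 ± 0.13, 0.41 ± 0.23 and 0.68 ± 0.29, and Adm, at -0.01 ± 0.41, had no direction that held between settings. Among the 23 immediate early genes and MAP kinase feedback genes measured, 3 rose and 3 fell, with a median of -0.21. Both counts lay near the shares of all genes tested, 11.8% for rises and 9.85% for falls. Without experiments 1, 2 and 3, 5, 1 and 1 rose and 2, 2 and 5 fell. The falls were Fosl1, Junb and Plaur, the urokinase receptor, and the rises were Klf6 at 1.07 ± 0.13, Klf10 at 0.71 ± 0.20 and Jun at 0.69 ± 0.16. Without the block neither the Klf10 nor the Jun rise was called (adjusted p = 0.32 and 0.286), nor was either without experiment 2 (0.172 and 0.0726), and Klf10 was not without experiment 3 (0.0685).

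Actin and its regulation by serum response factor (SRF) formed the next large group of falls: of 27 measured genes 15 fell and 2 rose, with a median of -0.40. Without the block 7 fell, and 14, 11 and 9 fell without experiments 1, 2 and 3. After Acta2 came Tagln, the actin-bundling protein transgelin, with 9.25, 10.04 and 10.03 at 12 h, against 11.24, 11.62 and 11.29 at 0 h, a change of -1.61 ± 0.17 (adjusted p = 5.09e-07). Cnn2, calponin 2, had 9.95, 9.81 and 9.72 at 12 h, against 10.92, 10.68 and 10.89 at 0 h and changed by -1.01 ± 0.18 (adjusted p = 0.00039). Actg2, a smooth muscle actin, changed by -0.98 ± 0.16 and Myl9, a myosin light chain, by -0.97 ± 0.23, both without overlap. Of the 2 rises Lima1, which codes for an actin crosslinker, was the larger at 0.93 ± 0.13. Actc1, the cardiac actin that stood on the muscle marker list, changed by -1.88 ± 0.31, and the muscle transcription factor gene Myog by -0.97 ± 0.34 (adjusted p = 0.0445), which was not called without the block (0.19) or without experiment 1 or 3 (0.203 and 0.313). The summed intensity of all 14 muscle markers on the array was 1407 to 1596 at 12 h and 1720 to 2089 at 0 h, and its part in the actin result was not tested.

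Part of the protein folding genes fell, and no gene of their lists rose, where 9.85% of all genes tested fell. Of 30 heat shock chaperones 11 fell (median -0.33), 4 without the block, and 8, 4 and 6 without experiments 1, 2 and 3. Hsph1, the HSP110 exchange factor, had 9.10, 9.29 and 9.25 at 12 h, against 11.97, 11.93 and 11.71 at 0 h and changed by -2.66 ± 0.23 (adjusted p = 2.44e-08). Bag3, an HSP70 co-chaperone of selective autophagy, had 9.97, 9.85 and 9.89 at 12 h, against 12.12, 10.82 and 11.16 at 0 h and changed by -1.46 ± 0.19 (adjusted p = 7.02e-06). Both stood clear of the 0 h arrays. Hspd1, the mitochondrial chaperonin, changed by -0.70 ± 0.18, while a dimmer probe set of it gave 0.33 ± 0.44, and the call was lost without experiment 1 (adjusted p = 0.152). Of 21 chaperones of the endoplasmic reticulum 8 fell (median -0.29), with 1 left without the block and 9, 3 and 3 without experiments 1, 2 and 3. The 1 fall left without the block lay near the 3.77% of all genes that fell in that fit. Manf, a secreted factor of the unfolded protein response, changed by -0.96 ± 0.15. It kept its call without the block and without each experiment. Hspa5, the chaperone BiP, changed by -0.68 ± 0.12, but not past the threshold without the block (adjusted p = 0.276).

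Genes of redox defence under the transcription factor NRF2 followed: of 31 measured 7 fell and 1 rose (median -0.06), and 4 fell without the block. Txnrd1, thioredoxin reductase, had 9.10, 9.40 and 9.24 at 12 h, against 11.01, 10.66 and 10.70 at 0 h, a change of -1.54 ± 0.17 (adjusted p = 8.95e-07). Gclc, the catalytic subunit that limits glutathione synthesis, had 7.10, 6.55 and 7.29 at 12 h, against 8.44, 8.67 and 8.33 at 0 h, and changed by -1.50 ± 0.30 (adjusted p = 0.000884). For both genes the groups did not overlap. The regulatory subunit gene Gclm changed by -0.85 ± 0.18, which was not called without experiment 2 (adjusted p = 0.0532). The rise was that of Gstm1, a glutathione transferase, at 0.46 ± 0.11 (adjusted p = 0.111 without the block).

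Upstream sequences of the fallen genes were searched for the sites that name these lists, in windows of 250 bases before a RefSeq gene start (GRCm38.p6), on both strands. The palindromic cAMP response element TGACGTCA was in a window of 2 of the 17 list members matched, Dusp1 and Slc25a25, and in a window of 1.77% of all 27025 genes. Genes have 1 or more windows, and each share counts genes, not windows. The CArG box, the SRF site, was in 7 of 22 matched actin list members and in 1.62% of all genes. The heat shock element core GAANNTTC was in 7 of 23 matched heat shock members and in 7.73% of all genes. The antioxidant response element core TGACNNNGC was in 6 of 25 matched NRF2 list members and in 11.5% of all genes. Among the fallen members these motifs were found in 1 of 9, 3 of 11, 4 of 11 and 3 of 5 matched genes. Lists hold few genes and were named for these factors, and a match is no evidence that a factor was bound. One window per list is shown, chosen after the values were seen: the fallen member with the largest change whose window holds the motif, with the motif in capitals on the strand of the gene. They are chr2:32424067-32424316 (minus strand) for Slc25a25, chr10:79988350-79988599 (plus) for Cnn2, chr1:55087933-55088182 (minus) for Hspd1 and chr10:82858956-82859205 (plus) for Txnrd1. The Txnrd1 match reads on the opposite strand.
Slc25a25: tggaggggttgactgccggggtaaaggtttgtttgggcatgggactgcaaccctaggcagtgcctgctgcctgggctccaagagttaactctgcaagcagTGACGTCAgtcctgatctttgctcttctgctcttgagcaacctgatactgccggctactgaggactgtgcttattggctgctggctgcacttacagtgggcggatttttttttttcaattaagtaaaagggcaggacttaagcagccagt
Cnn2: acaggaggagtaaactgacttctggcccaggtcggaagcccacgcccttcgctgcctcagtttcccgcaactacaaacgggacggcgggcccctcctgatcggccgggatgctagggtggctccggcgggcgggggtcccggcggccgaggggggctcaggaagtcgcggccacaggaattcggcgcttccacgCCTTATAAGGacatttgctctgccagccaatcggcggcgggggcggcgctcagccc
Hspd1: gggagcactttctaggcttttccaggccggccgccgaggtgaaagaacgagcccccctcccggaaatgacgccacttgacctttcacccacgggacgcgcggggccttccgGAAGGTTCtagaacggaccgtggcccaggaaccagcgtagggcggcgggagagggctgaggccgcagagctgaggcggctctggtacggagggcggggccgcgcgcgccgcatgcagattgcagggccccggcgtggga
Txnrd1: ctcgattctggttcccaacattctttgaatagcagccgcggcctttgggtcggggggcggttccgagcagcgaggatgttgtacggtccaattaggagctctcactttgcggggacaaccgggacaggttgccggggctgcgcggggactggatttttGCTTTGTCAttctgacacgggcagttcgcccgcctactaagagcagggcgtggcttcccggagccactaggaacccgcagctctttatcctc

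The machinery of protein synthesis and turnover fell across many genes by small amounts. Of 35 proteasome subunits 17 fell and 1 rose (median -0.35), 6 fell without the block, and 11, 7 and 5 fell without experiments 1, 2 and 3. Psmd13, a subunit of the regulatory lid, had 9.21, 9.41 and 9.22 at 12 h, against 9.78, 9.96 and 10.06 at 0 h, a change of -0.66 ± 0.11 (adjusted p = 0.000128). Psma1, of the core, changed by -0.77 ± 0.13 (adjusted p = 0.000168). Of 39 tRNA synthetases and translation factors 14 fell and 0 rose (median -0.24), 4 fell without the block, and 10, 7 and 10 fell without experiments 1, 2 and 3. Eprs, which charges 2 amino acids, changed by -0.86 ± 0.15, Gars by -0.74 ± 0.13 and Rars by -0.71 ± 0.11, each below every 0 h array at 12 h. Of 22 genes of the amino acid response under ATF4, 9 fell and 2 rose, and 5 fell without the block. Mthfd2, of mitochondrial one-carbon metabolism, changed by -1.15 ± 0.14 (adjusted p = 4.34e-06).

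Ribosome biogenesis genes followed with 10 falls and 1 rise among 40 (median -0.23), 5 falls without the block and 8, 6 and 5 without experiments 1, 2 and 3. Rrp1b, a nucleolar protein, had 8.70, 8.74 and 8.64 at 12 h, against 10.12, 10.04 and 9.70 at 0 h, a change of -1.26 ± 0.16 (adjusted p = 7.02e-06). Nop56, a core protein of the box C/D particles that methylate ribosomal RNA, changed by -1.14 ± 0.19 (adjusted p = 0.000176). Ribosomal protein genes did not follow: of 24 measured 1 rose, Rpl37a at 0.34 ± 0.08 (adjusted p = 0.0572 without experiment 3), and 0 fell, with a median of 0.04. With the arrays scaled as deposited 4 of these rose and the median was 0.18. Of 40 splicing factor genes 11 fell and 1 rose, with 5 falls without the block and 11, 6 and 4 without experiments 1, 2 and 3. The falls included the spliceosome and SR protein genes Snrpa1 at -1.05 ± 0.19 and Srsf2 at -0.76 ± 0.11.

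Lipid genes split by list. Of 21 genes of fatty acid synthesis and triglyceride storage 9 fell and 2 rose (median -0.34), and 5 fell without the block. Beside Dgat1, Acsl4, which activates arachidonic acid, had 8.03, 8.18 and 8.03 at 12 h, against 10.75, 9.59 and 9.56 at 0 h, a change of -1.88 ± 0.25 (adjusted p = 8.39e-06). Scd1, the desaturase that makes oleate, had 10.76, 11.64 and 11.30 at 12 h, against 12.15, 12.35 and 12.66 at 0 h, and changed by -1.15 ± 0.14 (adjusted p = 3.18e-06). Fasn, fatty acid synthase, had 9.93, 9.73 and 9.28 at 12 h, against 10.90, 10.74 and 10.41 at 0 h, and changed by -1.04 ± 0.19 (adjusted p = 0.000303). None of the 3 overlapped between the times. Of the 2 rises Plin2, which coats lipid droplets, was the larger at 0.92 ± 0.17. Of 17 cholesterol synthesis genes 6 fell and 0 rose (median -0.47), with 1 fall without the block and 7, 3 and 2 without experiments 1, 2 and 3. Hsd17b7, a reductase of the pathway, changed by -2.19 ± 0.35 (adjusted p = 8.22e-05), and Idi1 by -1.66 ± 0.34 (0.0699 as adjusted p without the block).

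The joint list of fatty acid oxidation genes and targets of the PPAR nuclear receptors went the other way, with 6 of 25 genes rising and 0 falling. Its median was 0.22, and 4 genes rose without the block. Angptl4, a secreted inhibitor of lipoprotein lipase, had 10.04, 9.96 and 10.48 at 12 h, against 8.57, 8.21 and 8.59 at 0 h, a change of 1.70 ± 0.19 (adjusted p = 7.17e-07). A further probe set of it gave 0.94 ± 0.14 and the dimmest -0.57 ± 0.46, so its probe sets disagreed. Acadm, a dehydrogenase of medium-chain acyl-CoA, had 11.87, 11.49 and 11.62 at 12 h, against 10.85, 10.36 and 11.14 at 0 h, and changed by 0.88 ± 0.18 (adjusted p = 0.00129). Cpt1a, the gate of fatty acids into mitochondria, changed by 0.69 ± 0.14, higher at 12 h in each experiment though the groups overlapped. Of 22 genes of glucose uptake and glycolysis 6 fell and 2 rose, with 2 falls without the block and 3, 5 and 3 without experiments 1, 2 and 3. Pgam1, a mutase of glycolysis, changed by -0.76 ± 0.15, and Pfkm, the muscle form of phosphofructokinase, rose with 11.08, 11.01 and 11.09 at 12 h, against 10.16, 10.24 and 10.22 at 0 h, a change of 0.85 ± 0.11 (adjusted p = 7.00e-06). Of 56 oxidative phosphorylation genes 10 fell and 3 rose (median -0.05), 2 and 0 without the block. Without experiments 1, 2 and 3, 5, 2 and 3 fell and 3, 0 and 0 rose. Over all genes tested 9.85% fell and 11.8% rose, and 3.77% and 4.91% without the block. The 2 falls without the block lay near that share, so the list did not stand out in that fit.

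DNA replication genes fell by 12 h. Of 40 measured S phase genes 20 fell and 0 rose, with a median of -0.58 against 0.02 over all genes. Without the block 13 fell, and 21, 15 and 16 fell without experiments 1, 2 and 3. The list medians of the experiments were -0.54, -0.67 and -0.66. Pcna, the sliding clamp of DNA polymerase, had 8.75, 8.78 and 8.82 at 12 h, against 10.65, 10.53 and 10.37 at 0 h, a change of -1.73 ± 0.17 (adjusted p = 2.65e-07). Its 12 h values lay within 0.1 of each other and well below every 0 h array. Chaf1a, a histone chaperone of replicated DNA, had 6.88, 6.04 and 5.82 at 12 h, against 7.65, 8.21 and 8.35 at 0 h, and changed by -1.82 ± 0.40 (adjusted p = 0.00184; 0.0546 without experiment 2). The helicase subunits Mcm5 and Mcm3 changed by -1.65 ± 0.29 and -1.33 ± 0.23, with differences between experiments that ended both calls without the block (adjusted p = 0.173 and 0.225). Chek1, the checkpoint kinase of replication, changed by -1.35 ± 0.25 (adjusted p = 0.0534 without experiment 3), and the ribonucleotide reductase subunits Rrm1 and Rrm2 by -1.11 ± 0.17 and -1.08 ± 0.22. The exact sequence TTTCCCGC, 1 form of the E2F site, was in an upstream window of 2 of the 35 matched S phase genes. It was in 0 of the 18 that fell, and in 1.03% of all genes. Other forms were not searched, so this does not show that the fallen genes lack E2F sites.

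Fewer genes of mitosis than of S phase were called at 12 h. Of 47 measured genes of G2 and mitosis 12 fell and 1 rose (median -0.33), where 9.85% of all genes tested fell. Without experiments 1, 2 and 3, 8, 6 and 5 of them fell. Without the block 2 fell, near the 3.77% of all genes in that fit, so the list did not stand out there. H2ax, a histone variant, had 10.01, 10.65 and 10.32 at 12 h, against 11.05, 11.32 and 10.92 at 0 h, a change of -0.77 ± 0.10 (adjusted p = 7.02e-06). Plk4, the kinase of centriole duplication, had 7.37, 8.42 and 8.48 at 12 h, against 8.31, 9.73 and 9.87 at 0 h, and changed by -1.21 ± 0.20, with no call without the block (adjusted p = 0.15). Among spindle checkpoint genes Mad2l1 changed by -0.90 ± 0.26 (adjusted p = 0.0143) and Bub3 by -0.31 ± 0.09 (adjusted p = 0.0207). Neither was called without the block (0.245 and 0.441), without experiment 2 (0.0535 and 0.0648) or without experiment 3 (0.176 and 0.347), nor was Bub3 without experiment 1 (0.0501). Cdc20, the activator of the anaphase promoting complex, changed by -0.12 ± 0.32, and Kif20a, a kinesin of cytokinesis, by 0.36 ± 0.54, and neither was called. Neither of these 2 had a direction that held in all settings. The mean over experiments of the list median relative to 0 h was -0.0117 ± 0.0927 at 6 h, -0.335 ± 0.146 at 12 h and -1.18 ± 0.467 at 18 h (SD, n = 3), while that of S phase genes was -0.276 ± 0.0596, -0.623 ± 0.0734 and -0.708 ± 0.255. Of 13 genes of G1 entry 2 fell, Ccnd2 at -1.08 ± 0.38 and Tfdp1 at -0.43 ± 0.15, and neither was called without the block (adjusted p = 0.121 and 0.33) or without experiment 2 (0.115 and 0.502) or 3 (0.135 and 0.0887), nor Ccnd2 without experiment 1 (0.137). A second Tfdp1 probe set gave -0.78 ± 0.19. The 2 falls among 13 genes of G1 entry compare with 9.85% of all genes tested.

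**Figure D3:**
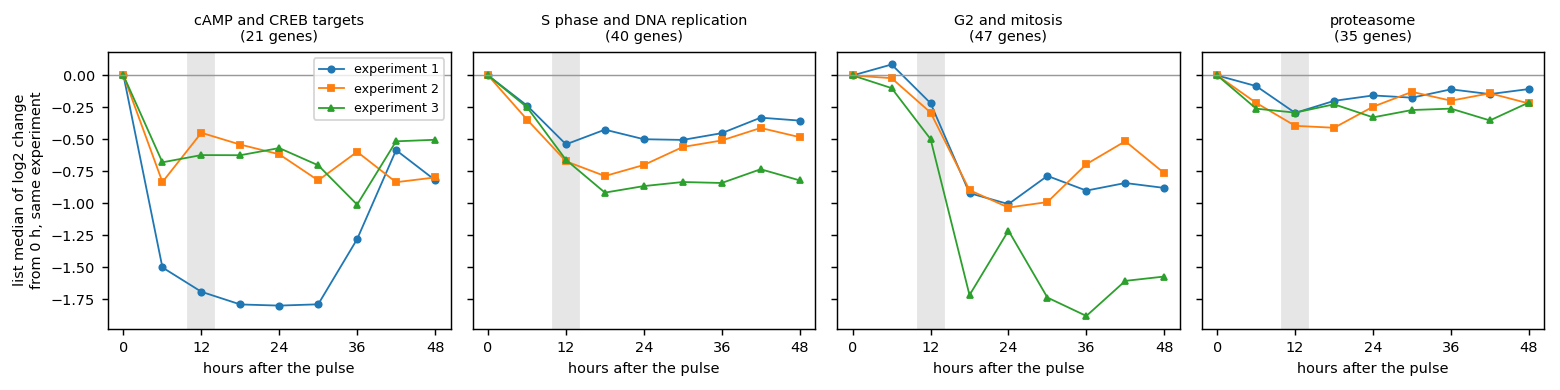
Median over each list of the log2 change from the 0 h array of the same experiment, by hours after the pulse, 1 line per experiment, with 12 h shaded. At 12 h the S phase medians lay between -0.67 and -0.54 and those of G2 and mitosis between -0.50 and -0.22, and the G2 and mitosis medians were lower still at 18 h in all 3 experiments. The cAMP medians were below 0 at every time from 6 h on, and at 12 h the line of experiment 1 was the lowest.

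Genes tied to growth arrest, p53 and FoxO rose in 10 of 30 cases and fell in 4 (median 0.07), with 9 rises and 3 falls without the block. After Txnip came Bcl2l11, the apoptosis inducer BIM, with 10.50, 10.94 and 10.90 at 12 h, against 9.28, 9.68 and 10.02 at 0 h, a change of 1.12 ± 0.13 (adjusted p = 1.83e-06). Foxo3 changed by 0.91 ± 0.14 and Sesn1, a stress-induced regulator of growth signalling, by 0.86 ± 0.13. The falls included the damage-inducible genes Gadd45b at -1.72 ± 0.27 and Gadd45g at -1.48 ± 0.36; the Gadd45g call was lost without experiment 1 (adjusted p = 0.0628), where 2 of the list fell. Gas2, an actin-associated protein first found in arrested NIH/3T3 cells, had 10.53, 10.67 and 10.91 at 12 h, against 11.87, 11.82 and 11.78 at 0 h, and changed by -1.12 ± 0.13 (adjusted p = 1.75e-06). Its groups were apart by more than 0.8.

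Extracellular matrix genes rose more often than they fell, 17 and 6 of 53, with 8 and 4 without the block and 15, 12 and 8 rising and 6, 2 and 2 falling without experiments 1, 2 and 3. The list median was 0.09. Its 17 rises compare with 11.8% of all genes tested, and its 6 falls lay near the 9.85% of all genes that fell. Lama4, a laminin chain, had 12.82, 12.26 and 12.36 at 12 h, against 10.97, 10.98 and 11.01 at 0 h, a change of 1.50 ± 0.10 (adjusted p = 7.29e-10). Lum, the collagen-binding proteoglycan lumican, had 13.51, 12.88 and 13.12 at 12 h, against 12.72, 11.25 and 11.72 at 0 h, and changed by 1.27 ± 0.16 (adjusted p = 4.28e-06). Col3a1, the type III collagen chain, had 14.39, 13.90 and 13.97 at 12 h, against 13.49, 12.60 and 12.62 at 0 h, and changed by 1.18 ± 0.13 (adjusted p = 1.17e-06). In all 3 genes every 12 h array exceeded every 0 h array. Col15a1 changed by 1.47 ± 0.23, but with overlap between experiments and no call without the block (adjusted p = 0.0823). Beside Tnc the falls included Has2, a hyaluronan synthase, at -1.04 ± 0.21. Of 14 fibroblast markers 4 rose and 2 fell, and their summed intensity was 145700 to 152600 at 12 h and 121000 to 127900 at 0 h. Of 17 matrix proteases and inhibitors 5 rose and 1 fell, 3 and 0 without the block, and 5, 2 and 5 rose without experiments 1, 2 and 3. The largest rise on this list was F3, though tissue factor is itself neither a protease nor an inhibitor of one. Mmp14, a membrane-bound collagenase, changed by 0.55 ± 0.10 (adjusted p = 0.0573 without experiment 2).

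Lysosome and autophagy genes rose in 11 of 56 cases and fell in 0 (median 0.16). There were 5 rises without the block and 13, 5 and 3 without experiments 1, 2 and 3. Over all genes tested 11.8% rose, and 4.91% without the block. Without experiment 3, 392 of all 7453 probe sets rose, a share near that of the list, so the list did not stand out there. Ctsd, the protease cathepsin D, had 13.32, 13.17 and 13.07 at 12 h, against 12.60, 12.41 and 11.94 at 0 h, a change of 0.87 ± 0.10 (adjusted p = 2.64e-06). Lipa, the acid lipase, had 10.43, 10.51 and 10.64 at 12 h, against 9.18, 9.78 and 9.37 at 0 h, and changed by 1.09 ± 0.18 (adjusted p = 0.000115). Both were separate from 0 h. Interferon response genes rose in 6 of 25 cases and fell in 0 (median 0.23; 5 without the block). Ifi30, a lysosomal thiol reductase, had 10.62, 9.64 and 9.33 at 12 h, against 7.56, 7.91 and 7.18 at 0 h, a change of 2.32 ± 0.28 (adjusted p = 3.09e-06), and the GTPase gene Gbp2 had 9.25, 9.89 and 10.11 at 12 h, against 7.94, 8.32 and 8.40 at 0 h, a change of 1.53 ± 0.16. Ifit2, a dim gene, changed by 1.81 ± 0.43, was not called without experiment 3 (adjusted p = 0.0802), and changed by 1.13 with a pseudocount of 50. Of 20 genes of NF-kB signalling, chemokines and cytokines 5 fell and 2 rose, with 1 fall and 0 rises without the block. Without experiments 1, 2 and 3, 0, 2 and 2 fell and 2, 0 and 0 rose. Cx3cl1, the chemokine fractalkine, changed by -0.81 ± 0.17, and was not called without experiment 1 or 2 (adjusted p = 0.0541 and 0.0575).

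In the list of the IGF, FGF, PDGF and VEGF axis 8 of 22 genes rose and 2 fell (median 0.29), with 5 rises without the block and 6, 5 and 7 without experiments 1, 2 and 3. Pdgfra, a receptor of platelet-derived growth factor, had 13.18, 13.14 and 13.21 at 12 h, against 12.32, 12.46 and 12.32 at 0 h, a change of 0.81 ± 0.09 (adjusted p = 1.18e-06). Egfr, the receptor of epidermal growth factor, had 8.33, 8.22 and 8.38 at 12 h, against 7.17, 7.33 and 7.31 at 0 h, and changed by 1.04 ± 0.20 (adjusted p = 0.000705). A second, dimmer Pdgfra probe set gave 0.04 ± 0.29 (adjusted p = 0.946), and a second Egfr probe set 0.67 ± 0.33 (adjusted p = 0.159). The other rises were those of the receptor genes Igf2r at 0.48 ± 0.09, Pdgfrb at 0.69 ± 0.18 and Fgfr2 at 0.52 ± 0.16, the ligand genes Igf2 at 0.51 ± 0.11 and Kitl at 0.76 ± 0.17, and the binding protein gene Igfbp4 at 0.69 ± 0.17. Without the block Pdgfrb, Fgfr2 and Kitl were not called (adjusted p = 0.238, 0.076 and 0.0548). Pdgfrb and Igfbp4 were not called without experiment 1 (0.0918 and 0.0927), nor Fgfr2, Igf2 and Kitl without experiment 2 (0.0883, 0.177 and 0.0608), nor Fgfr2 without experiment 3 (0.266). The falls were the ligand genes Fgf7 at -0.87 ± 0.13 and Vegfa at -1.37 ± 0.38, and Vegfa was not called without experiment 1 or 2 (adjusted p = 0.227 and 0.0522). Of 33 TGF-beta, BMP and Id genes 7 rose and 2 fell, 3 and 1 without the block, and 5, 4 and 4 rose without experiments 1, 2 and 3. Of 23 nuclear receptors and Kruppel-like factors 7 rose and 2 fell, 3 and 1 without the block, and 6, 3 and 2 rose without experiments 1, 2 and 3. Beside Vdr, Nr2f1 changed by -0.87 ± 0.16 (adjusted p = 0.0669 without the block), and Klf13, the largest rise, by 1.49 ± 0.34 (adjusted p = 0.101 without experiment 3). In the 43 genes of G protein and cAMP signalling 2 rose and 6 fell, against 11.8% and 9.85% of all genes tested. There were 3, 6 and 3 falls without experiments 1, 2 and 3. The rises were Ramp2, at 1.49 ± 0.19, the sister of Ramp3, and Rgs3, at 1.27 ± 0.18. Ramp2 had 10.16, 8.83 and 9.21 at 12 h, against 8.36, 7.47 and 7.91 at 0 h, the direction opposite to that of Ramp3.

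Of the core circadian clock 13 genes were measured, and 1 fell and 1 rose, each also without the block. Over all genes tested 9.85% fell and 11.8% rose. Cry1, a repressor of the clock, had 8.11, 8.20 and 8.08 at 12 h, against 9.93, 9.72 and 9.44 at 0 h, a change of -1.57 ± 0.22 (adjusted p = 1.84e-05). Rora, the nuclear receptor that activates Arntl, had 8.96, 8.71 and 8.61 at 12 h, against 8.09, 7.59 and 7.80 at 0 h, and changed by 0.93 ± 0.13 (adjusted p = 1.67e-05). The 12 h arrays lay apart from the 0 h arrays in both. Nr1d2, coding for the receptor REV-ERB beta that opposes Rora, had 8.31, 8.50 and 8.88 at 12 h, against 7.43, 7.24 and 7.26 at 0 h. The groups did not overlap, but its change of 1.25 ± 0.57 had a wide SE and was not called (adjusted p = 0.127), since the SE comes from all 9 times. Per3 changed by 0.54 ± 0.37, Nr1d1 by 0.49 ± 0.29, Cry2 by 0.46 ± 0.22 and Per1 by -0.26 ± 0.29. The activators Arntl and Clock changed by -0.12 ± 0.29 and -0.17 ± 0.19, Bhlhe40 by -0.67 ± 0.46, Timeless by -0.14 ± 0.19, and the kinase genes Csnk1d and Csnk1e by -0.17 ± 0.08 and 0.23 ± 0.15. None of these was called, which does not show that they stayed level. Other probe sets of Csnk1d changed by 0.32 ± 0.19, 0.06 ± 0.11 and -0.97 ± 0.46, so its direction is not settled. Of 11 clock output genes 3 fell and 1 rose, and the falls were called without the block too. They were Nfil3, Pnp, a nucleoside phosphorylase, at -1.45 ± 0.21 and Usp2, a deubiquitinase, at -1.39 ± 0.31, which changed by -0.62 without experiment 1. An E-box CACGTG, the site of CLOCK and ARNTL, was in the window of 2 of 11 matched core clock genes, Cry1 and Per1, and in 6.86% of all genes. The Cry1 window, shown since it is the called gene of the list that holds one, is chr10:85185055-85185304 (minus strand, GRCm38.p6), with the E-box in capitals.
Cry1: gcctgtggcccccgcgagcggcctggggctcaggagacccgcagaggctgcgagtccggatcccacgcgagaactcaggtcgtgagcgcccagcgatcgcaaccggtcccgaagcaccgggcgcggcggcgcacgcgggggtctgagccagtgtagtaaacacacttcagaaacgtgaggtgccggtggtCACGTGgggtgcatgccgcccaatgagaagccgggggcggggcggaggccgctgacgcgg

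**Figure D4:**
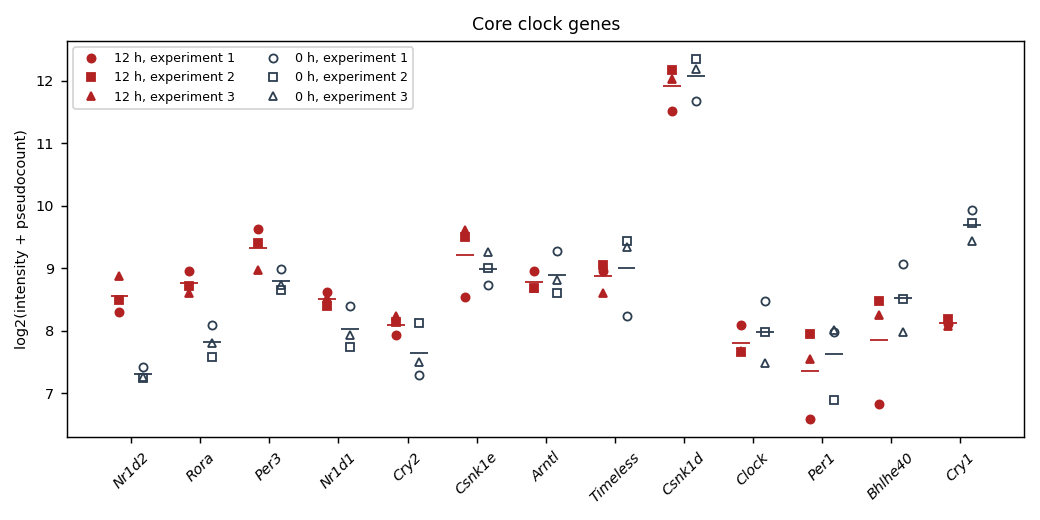
Values of the 13 measured core clock genes as log2(intensity + 12.1), ordered by change at 12 h against 0 h, with 12 h arrays filled and 0 h arrays open, and a bar at each mean. Cry1 is at 8.08 to 8.20 at 12 h against 9.44 to 9.93 at 0 h, Rora is at 8.61 to 8.96 against 7.59 to 8.09, and the 2 times also do not overlap for Nr1d2 and Nr1d1.

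To place 12 h in the course, the neighbouring times were compared in the same fit. At 6 h against 0 h, which shares the 0 h arrays with the main comparison, 619 genes rose (11.0%) and 399 fell (7.07%). The values of the leading genes at 6 h against 0 h were -4.30 for Vdr, -2.88 for Srxn1, -2.61 for Acta2, -2.64 for Dgat1 and 2.38 for Txnip. Their 12 h changes, given above, were -4.65, -3.42, -3.30, -2.58 and 2.37. S phase genes had 6 falls at 6 h and a median of -0.27, while the cAMP list had 12 falls and a median of -1.08. Some genes called at 12 h showed little at 6 h: Scd1 changed by 0.03 at 6 h, Ctsd by 0.11, Egfr by 0.08, Rora by 0.20, Gas2 by -0.24 and Chaf1a by -0.29.

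The contrast of 12 h with 6 h does not use the 0 h means, though the 0 h arrays enter the fit's estimate of the spread. With only the arrays of these 2 times 56 probe sets were called. Of 5643 genes 13 were higher at 12 h than at 6 h (0.230%) and 21 lower (0.372%). Scd1 was lower by 1.18 (SE 0.14, adjusted p = 0.00016), Plk4 changed by -1.25 ± 0.20 (adjusted p = 0.00417), Tnc by -1.11 ± 0.20 and Pclaf, a clamp-binding factor of replication, by -1.09 ± 0.22. Ctsd changed by 0.77 ± 0.10 (adjusted p = 0.000838), Rora by 0.73 ± 0.13, Crabp1, a retinoic acid binding protein, by 0.67 ± 0.12 and Egfr by 0.96 ± 0.20. Mgst2, a microsomal glutathione transferase, changed by -1.70 ± 0.35, after a mean of 9.87 at 6 h, and Asb6 by -1.48 ± 0.28. Without the block 1 probe set was called, against 40 with it, and 14, 4 and 4 were called without experiments 1, 2 and 3. Of these 10 genes Scd1 kept its call without each single experiment, the other 9 did not, and Scd1 was not called without the block (adjusted p = 0.475).

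Between 12 h and 18 h, 3 genes were higher at 18 h (0.0532%) and 8 lower (0.142%). The lower ones included 4 of the 47 mitotic genes: Kif20a at -3.25 ± 0.54 (adjusted p = 0.0281), Cdc20 at -1.72 ± 0.32 (adjusted p = 0.0361), Cks2, a subunit of cyclin-dependent kinases, at -1.34 ± 0.25, and Pttg1, securin, at -0.98 ± 0.20. The other lower genes were Cdca8, Mmp9, Fgfr2 and Pfkm, and the higher ones Cry1 at 1.14 ± 0.22 (adjusted p = 0.0378), Asb6 and Sh3gl1. The Cry1 means were 9.70, 8.42, 8.13 and 9.27 at 0, 6, 12 and 18 h, so 12 h was its lowest time of the 4. None of the 11 genes was called when any 1 experiment was left out. Without the block 0 probe sets were called by limma (243 at an unadjusted p below 0.05), against 12 with it, and 2, 2 and 0 were called without experiments 1, 2 and 3.

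**Figure D5:**
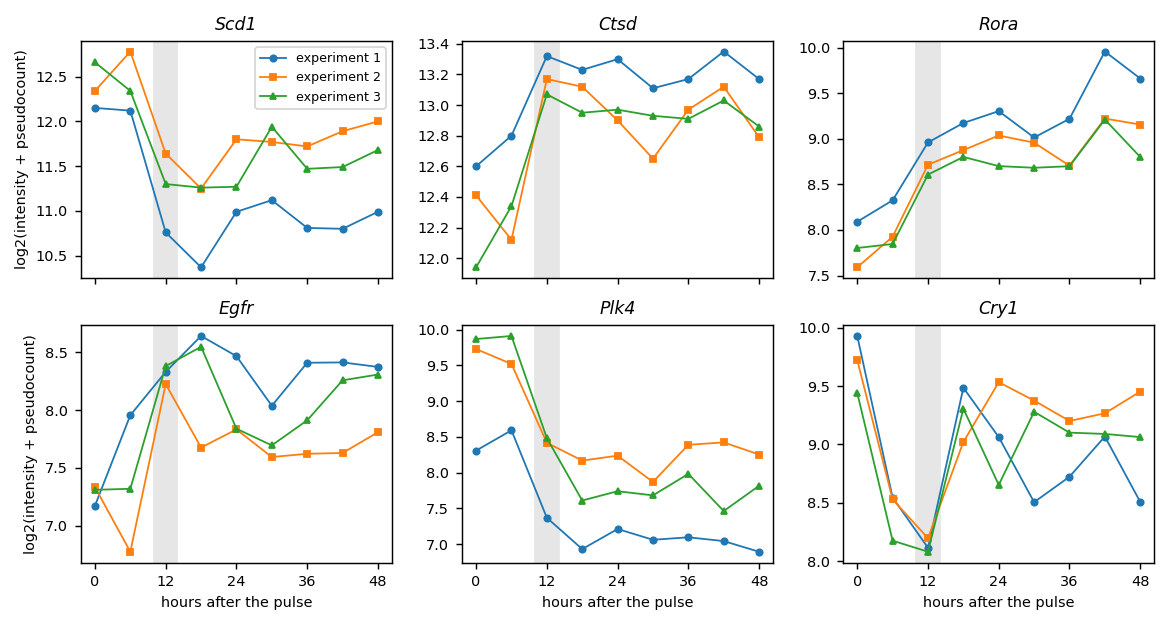
Values of 6 genes as log2(intensity + 12.1) over all 9 harvest times, 1 line per experiment, with 12 h shaded. Scd1 and Plk4 are lower at 12 h than at 6 h, Ctsd, Rora and Egfr are higher, and Cry1 has its lowest mean of the first 4 times at 12 h, 8.13, before 9.27 at 18 h.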

How the data were processed

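Total RNA of 27 cultures, 3 experiments at 9 harvest times, was measured on Affymetrix mouse U74v2 arrays. The deposited values are probe set intensities on a linear scale, with the algorithm that summarised the probes not given in the sources used here. The authors' values had been scaled: the trimmed mean of each array lay between 500.28 and 500.35. Detection calls did not come with them. Precision is limited by the number of arrays, and none of them duplicates another.

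From these intensities, log2(intensity + 12.1) was computed, 12.1 being the 10th percentile of all values, which understates the changes of dim genes. Arrays were quantile normalized. The 66 control probe sets and those whose mean lay below the 40th percentile were left out, which kept 7453 probe sets and 5643 genes, each represented by its brightest probe set. GEO's platform annotation gave 1 symbol for 10833 probe sets and several for 396, and did not list 1193; only the first kind was named. A limma fit (R 4.3.3, limma 3.58.1) over all 27 arrays used lmFit and eBayes with an intensity trend, time means, and experiment number as a block, with Benjamini-Hochberg adjustment. The block was used because the comparison pairs arrays by experiment. The labels call the experiments biological replicates, and deviations from the time means of the 12 h and 0 h arrays correlated within experiments at r = 0.534, 0.392 and 0.251 over probe sets. In data simulated with normal noise for 12 h against 0 h, 200 of 7453 probe sets were given a change, at 12 h alone. The fit called 28.4% of changes of 0.5, 79.1% of changes of 1 and 100% of changes of 2 on the log2 scale, with 6 false calls. In the real comparison 20.4% of probe sets were called, so these shares hold for the simulated setting and are not its recovery rates.

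The naming rule took the 20 called genes that rose most and the 20 that fell most, each with 1 sign in all 3 experiments, the 5 called members of each of 39 lists with the biggest changes (where none was called, the member with the smallest p), all measured members of the core clock and cAMP lists, the 8 largest changes each way for the neighbouring times, and other probe sets of a named gene that differ in sign. From this set the text gives a selection. Jun, Foxo3, Sesn1, Rrm1, Rrm2, Lima1, Gstm1, Plin2, Has2, Mad2l1, Bub3, the members of the growth factor axis and the marker genes with their levels, where outside this rule, were chosen after their values were seen. The comparison and the lists were chosen with earlier results of these data known. Of the alternatives tried, the actin 3′ to 5′ ratio as a covariate was added after seeing the data. Sequences are from RefSeq (GRCm38.p6).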

Additional observations from a re-analysis of the deposited data

How the results depend on the processing

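For 12 h against 0 h, 1521 probe sets were called (813 rose and 708 fell). Without the replicate block, which sets the pairing by experiment aside, 621 were called (343 rose and 278 fell). With only the arrays of the 2 times 997 were called (514 rose), and with only the experiment 2 array at 12 h 768 (401 rose and 367 fell). Leaving out 1 experiment gave 759 to 1151 (392 to 626 rose and 367 to 525 fell). The share of calls that were higher at 12 h was 53.5%, 55.9% with arrays scaled as deposited and 51.8% with arrays centred on their medians. For 12 h against 6 h (40 called) the count was 1 without the block, 22 without the filter, 61 with array weights, 10 with the experiment 2 array at 12 h only, and 4 to 14 with an experiment left out. For 18 h against 12 h (12 called) it was 19 with a pseudocount of 50, 4 without the experiment 1 arrays at 18 h and 30 h, 6 with the actin ratio as a covariate, and 0 to 2 with an experiment left out. It was 0 by limma without the block (243 at an unadjusted p below 0.05), without the filter (1007), with the arrays of the 2 times (552), without the intensity trend (648) and without experiment 3 (356). Of 171 named genes called at 12 h against 0 h, 86 kept their call and a change within 1.5 times under all 16 alternatives that gave a value; none of the 171 turned its sign, 119 kept the call without the block, and 171 did with a pseudocount of 50. Uncalled changes at 12 h against 0 h that turned sign were few. With an experiment left out they ranged from -0.25 to 0.21 for Adm, -0.61 to 0.029 for Atf3, -1.13 to 0.12 for Bhlhe40, -0.28 to 0.026 for Cdc20, -0.23 to 0.61 for Mgst2, -0.92 to 0.30 for Per1, -0.066 to 0.080 for Sh3gl1 and -0.56 to 0.16 for Timeless. With the experiment 2 array only at 12 h, Adm was at 0.027, Kif20a at -0.30, Pea15a at 0.41 and Per1 at 0.75; with the actin ratio Kif20a was at -0.098 and Adm at 0.21. Adm was also at 0.0065 as deposited, 0.053 with a pseudocount of 1 and 0.0059 with array weights. The filter at the 60th percentile kept no muscle marker and 130 of the 171 named genes. The cause of these shifts was not tested. No detection calls came with the intensities, so for dim genes background limits what can be read from a change.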
